A study of Ascaris suum with 12 samples.

Results

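The genes described here lie in the parts of the Ascaris suum genome that the deposited transcript table marks as eliminated, on scaffolds whose names begin with AgB. They were chosen as the rows with the elimination flag, a scaffold name starting AgB and the mark for the best expressed transcript of a gene, which gave 238 of the 18025 genes of the table. The 238 genes lie on all 36 AgB scaffolds and have 978 transcripts in the table. The genes on the same scaffolds whose marked transcript carries no elimination flag, called retained here, number 5522 and served as the comparison. A further 688 eliminated genes lie on scaffolds named AgE, and all 11577 genes on scaffolds named AgR are retained.

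Adult worms of a North American wild-type strain, a roundworm of the pig intestine, were dissected, and RNA was sequenced from regions along the germline tube after ribosomal RNA depletion. The 5 male regions were the mitotic region, spermatogenesis, the post-meiotic region, the seminal vesicle and spermatids. The 5 female regions were the mitotic region, the early and late parts of pachytene, diplotene and the oocyte. Each region is 1 library, no treatment was given, and no source used here gives worm age or the number of worms pooled. With 1 library per region no difference could be tested against replicate spread, so every difference is a size between 2 libraries. Dissected tissue holds whatever cells are in the tube, and fewer cells of a type cannot be told apart from less RNA per cell.

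Programmed DNA elimination is the loss of defined stretches of the genome from somatic cells in the early embryo, while the germline keeps the complete genome. In Ascaris the chromosomes break at defined places, new telomeres are added to the retained ends, and the DNA beyond the breaks is lost from the somatic lineages. A gene in an eliminated stretch can therefore be transcribed in the germline and in the early embryo, and not in somatic tissue after elimination.

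The eliminated AgB genes formed 37 runs along the scaffolds, called blocks here, with AgB02 holding 2 of them. Of these blocks, 19 stood at the start of a scaffold, 13 at the end and 3 between retained genes, and 2 filled scaffolds with no retained gene (AgB32 and AgB34, 11 genes). A block held 1 to 22 genes, with a median of 4, and spanned 10.2 to 306.4 kb, with a median of 59.97 kb. The blocks carried 8.0 genes per 100 kb, against 5.93 per 100 kb over the retained stretches of the same scaffolds. Where a block met retained genes, the gap between the nearest genes had a median of 6903 bp over 35 blocks, with a range of 585 to 31079 bp among those that did not overlap. In 1 block the methylmalonyl-CoA mutase gene AgB02_g471 (AgB02, 8062186 to 8078849, plus strand) overlapped a retained neighbour. That gene is also the single eliminated AgB gene whose transcripts carry both flags, 6 eliminated and 1 retained. AgB01_g828, AgB05_g425, AgB08X_g004 and AgB16X_g006 also have transcripts of both flags and count as retained by their marked transcript. AgB01_g828, with 12 transcripts flagged eliminated and 7 retained, AgB05_g425 and AgB08X_g004 are retained neighbours at a block edge. The gap of 585 bp is measured to AgB08X_g004. Coordinates are as the table gives them, with no genome build named by any source used here.

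The eliminated AgB genes were expressed mainly in the male mitotic region and in spermatogenesis. The table's values have the form of RPKM, reads scaled to transcript length and to the reads of the library. The median level of the 238 genes was 8.1 RPKM in the male mitotic region and 5.5 RPKM in spermatogenesis, where the 5522 retained genes had medians of 2.5 and 0.9 RPKM. It was 1.2 RPKM in the post-meiotic region, 0.1 RPKM in the seminal vesicle and 1.25 RPKM in spermatids, where the retained medians were 1.4, 0.4 and 1.1 RPKM. In the female regions the median of the eliminated genes was 2.75 RPKM in the mitotic region, 1.75 RPKM in both pachytene regions and 0.5 RPKM in both diplotene and the oocyte. The retained medians there were 1.8 RPKM in the mitotic and both pachytene regions, 1.6 RPKM in diplotene and 1.5 RPKM in the oocyte. The eliminated genes therefore stood above the retained genes in the early male regions and below them in diplotene, the oocyte and the seminal vesicle.

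**Figure D1:**
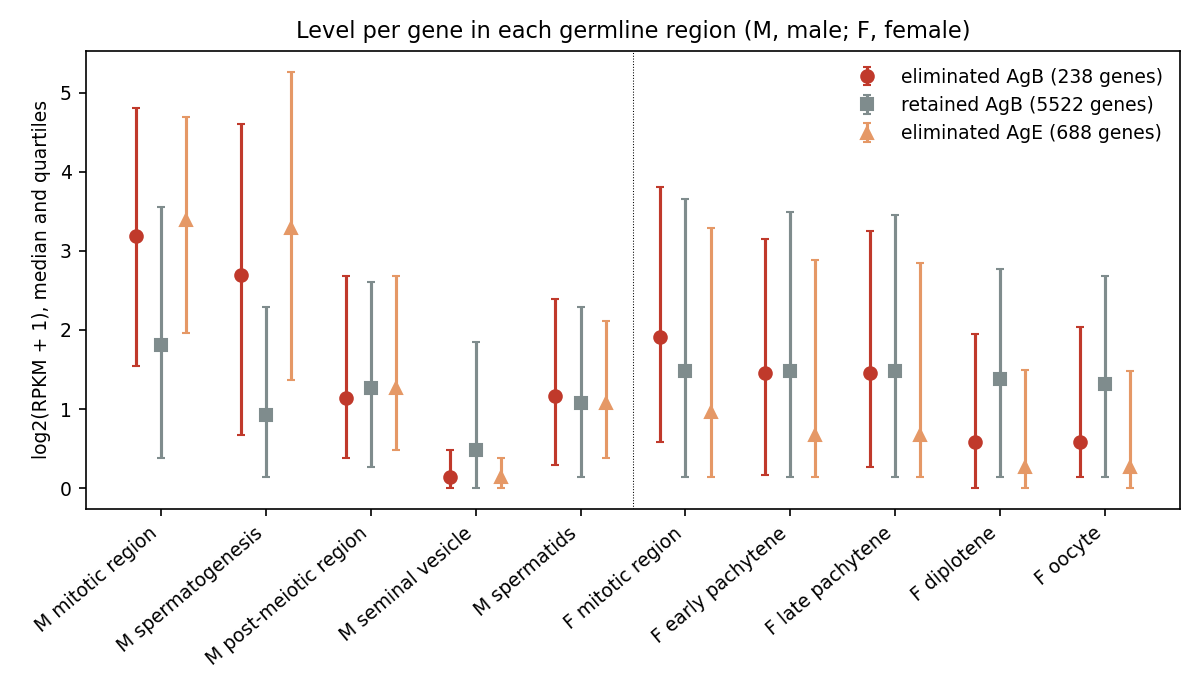
Level per gene in each region on a log2(RPKM + 1) axis, for eliminated AgB, retained AgB and eliminated AgE genes. Points are medians and bars run from the lower to the upper quartile over genes. The eliminated AgB median is 5.5 RPKM in spermatogenesis, where the retained AgB median is 0.9 RPKM.

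Of the 238 genes, 139 (58.4%) reached 10 RPKM in at least 1 region, against 46.1% of all genes and 45.4% of the retained AgB genes. In 27 genes (11.3%) every region was under 1 RPKM, against 17.1% of all genes. A level of 100 RPKM or more was reached by 34 genes (14.3%), against 7.46% of retained AgB genes.

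Among the 139 genes, 64 (46.0%) had their highest value in spermatogenesis, against 20.8% of all 8316 genes that passed 10 RPKM and 18.0% of the retained AgB genes. After rescaling the number was 105, or 70% of the eliminated genes that then passed 10 RPKM, against 36.1% of the retained ones. On the deposited scale a male region was highest in 98 genes (70.5%), against 44.7% of retained AgB genes. The male mitotic region was highest in 29 genes, against 13.8% of all genes, and the female mitotic region in 30, against 26.1%. Early pachytene was highest in 7, against 10%, and late pachytene in 4, against 4.33%. The post-meiotic region was highest in 3 genes, against 4.7%, the seminal vesicle in 1, against 5.7%, and spermatids in 1, against 1.73%. Diplotene was highest in 0 genes, against 5.21%, and the oocyte in 0, against 7.56%. Without the 10 RPKM limit, 38.1% of the 236 genes with any value were highest in spermatogenesis, against 15.9% of retained genes. The specificity index tau runs from 0 for a flat profile to 1 for a single region. Its median was 0.584 over the eliminated AgB genes and 0.436 over the retained AgB genes. Over the eliminated AgE genes that passed 10 RPKM it was 0.684, and 57.4% of these 434 were highest in spermatogenesis.

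**Figure D2:**
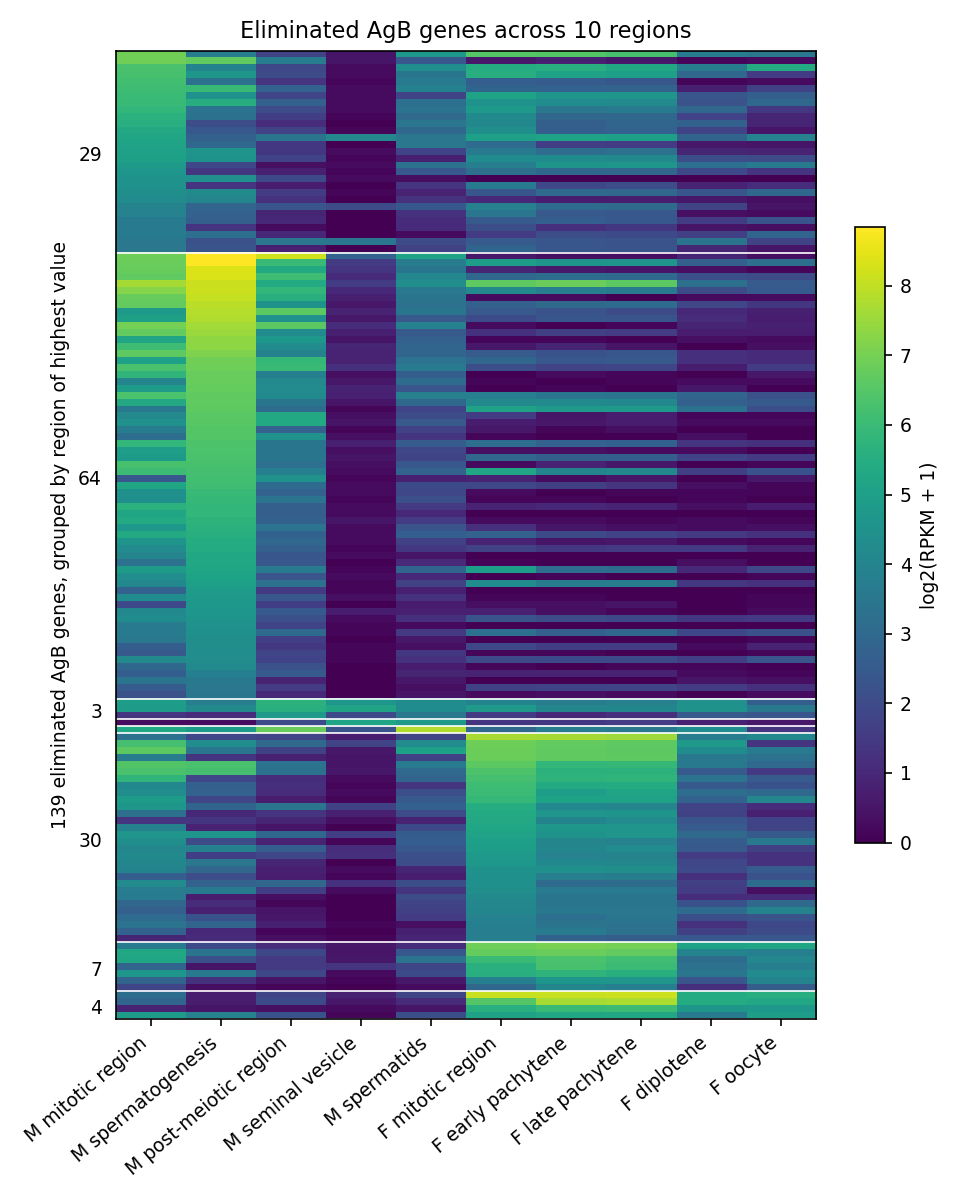
Levels of the 139 eliminated AgB genes that reached 10 RPKM, 1 row per gene and 1 column per region, as log2(RPKM + 1). Rows are grouped by the region of the highest value, with the number of genes at the left for groups of 3 or more. The 64 genes highest in spermatogenesis form the largest group.

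**Figure D3:**
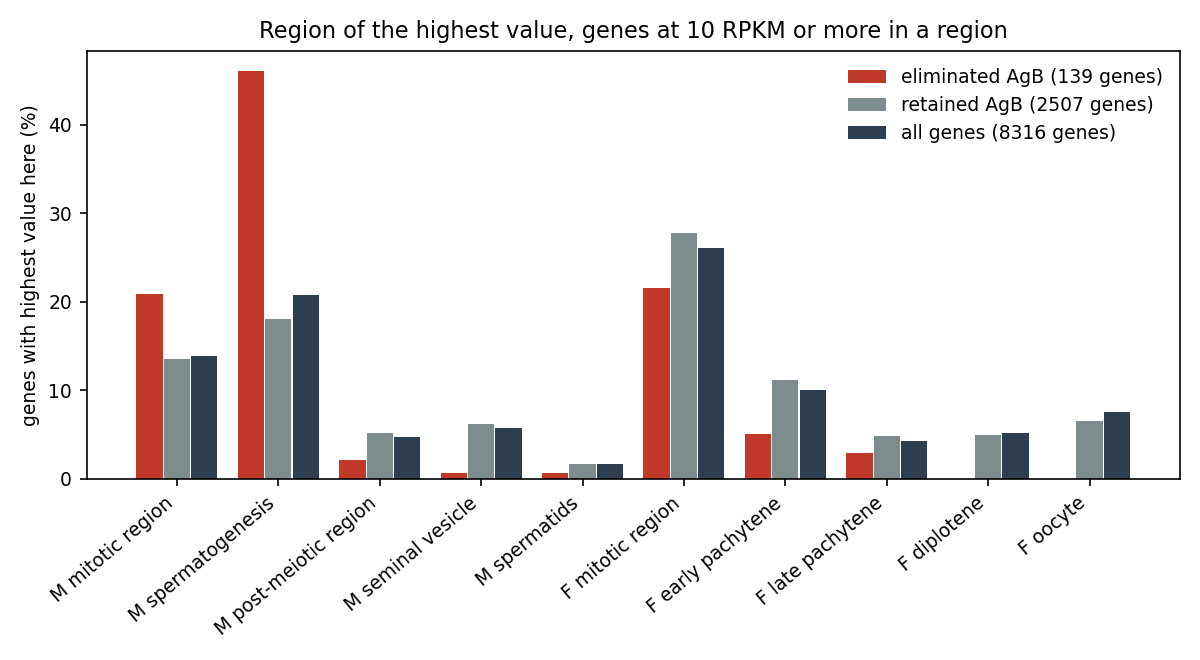
Percent of genes whose highest value was in each region, among genes that reached 10 RPKM in a region, for eliminated AgB, retained AgB and all genes. Spermatogenesis holds 46.0% of the eliminated AgB genes and 18.0% of the retained AgB genes.

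Spermatogenesis was set against early pachytene as the regions of meiosis in the 2 sexes. A gene was counted as higher or lower at a 4-fold difference on RPKM + 1 with the larger value at 10 RPKM or more. Of the 238 eliminated genes 63 were higher in spermatogenesis, where 9.34% of all genes were, and 27 were lower, where 15.6% of all genes were. On the retained AgB genes the same shares were 7.86% higher and 16.3% lower, and on the eliminated AgE genes 37.5% and 8.58%. When the libraries were rescaled by median ratios, which moves this comparison by 1.79 on the log2 scale, 93 eliminated genes were higher and 13 lower. The same rescaling took the retained AgB genes to 14.0% higher and 6.36% lower, and all genes to 15.8% and 6.32%. In the mitotic regions 51 eliminated genes were higher in the male, against a background of 6.63%, and 10 were higher in the female, against 4.34%.

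Along the male tube, 12 eliminated genes were higher in spermatogenesis than in the male mitotic region, against a background of 2.11%, and 22 were lower, against 9.81%. This order turned with the scaling, since 74 genes were higher and 1 was lower after rescaling, where 13.0% of all genes were higher and 0.355% lower. Rescaling moves this comparison by 1.97 on the log2 scale for every gene, and the median of all genes went from -0.30 to 0.15. From spermatogenesis to the post-meiotic region 65 eliminated genes were lower, against a background of 7.8%, and 2 were higher, against 5.67%. After rescaling 111 were lower and 1 was higher, against 15% and 3.50% of all genes. From the post-meiotic region to the seminal vesicle 30 genes were lower, against 5.27%, and 1 was higher, against 1.7%. The 30 became 61 with no filter on low values, 53 with a limit of 5 RPKM and 76 with values summed per gene. The share of all genes at these settings is not given here, so the rise is not read as a trait of the eliminated genes. In spermatids 18 genes were higher than in the seminal vesicle, against 2.3%, and 0 were lower, against 0.444%. The 18 ranged from 12 to 67 under the other settings, also without the share of all genes. Against the post-meiotic region 7 genes were higher in spermatids, against 1.56%, and 15 were lower, against 4.27%.

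Along the female tube, 0 eliminated genes differed at this size between the mitotic region and early pachytene, where 0.277% of all genes were higher and 0.155% lower in early pachytene. Early and late pachytene also differed in 0 of the 238 genes, against backgrounds of 0 and 0.0499%. In diplotene 33 eliminated genes were lower than in late pachytene, against 5.02%, and 0 were higher, against 2.25%. Rescaling brought the 33 to 7, with 1.56% of all genes lower. Between diplotene and the oocyte 2 genes were lower in the oocyte, against 0.843%, and 0 were higher, against 1.11%. At a 2-fold threshold the direction turned, with 3 lower and 5 higher.

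**Figure D4:**
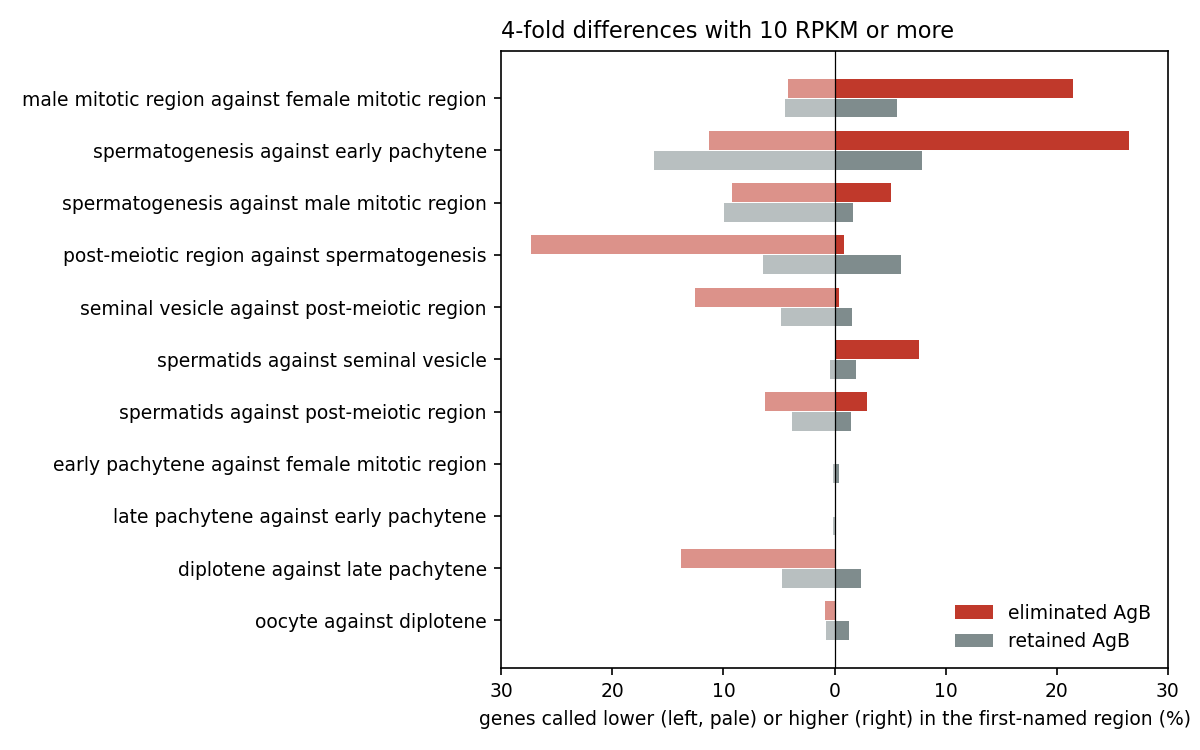
Percent of eliminated AgB (red) and retained AgB (grey) genes counted as higher (right) or lower (left, pale) in the first-named region of each of the 11 comparisons, at a 4-fold difference with 10 RPKM or more. The bars for spermatogenesis against early pachytene stand at 26.5% higher for eliminated and 7.86% for retained genes.

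A male-limited class was defined, after the values were seen, as 20 RPKM or more in spermatogenesis with every female region under 1 RPKM. It held 31 eliminated AgB genes (13.0%), 18.0% of the eliminated AgE genes, 3.50% of the retained AgB genes and 4.35% of all genes. Leaving out genes that overlap another gene left 18 of the 31. In these 31 genes the level in the male mitotic region was 39.1% of that in spermatogenesis at the median, in the post-meiotic region 12.05%, in the seminal vesicle 0.396% and in spermatids 3.35%. The 784 genes of the whole table that met the same rule had medians of 36.7%, 12.4%, 0.428% and 3.28%. A matching female class, also defined after the values were seen, with 20 RPKM or more in a female region and every male region less than 0.25 of it, held 11 eliminated genes (4.62%) and 4.86% of all genes. Under the rule of a 2-fold gap between every region of one sex and every region of the other, 1 eliminated gene was male, against 0.555% of all genes, and 5 were female, against 2.12%. The 5 became 10 without the male mitotic region and 3 without scaffold AgB02.

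The highest eliminated gene was AgB24_g002, a hypothetical protein (AgB24, 22583 to 26232, plus strand). Its levels were 117.5, 457.9, 291.5, 5.9 and 33.7 RPKM in the male mitotic region, spermatogenesis, the post-meiotic region, the seminal vesicle and spermatids. In the female regions, from mitotic through early and late pachytene and diplotene to the oocyte, they were 0.5, 0.3, 0.3, 0.9 and 0.3 RPKM. Every male value lay above every female value, and this was the 1 male gene of the gap rule.

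On the same scaffold AgB24_g005 (AgB24, 53715 to 69645, minus strand) is annotated as glutaminase, the enzyme that converts glutamine to glutamate. Its male levels, in the same order, were 109.4, 327.4, 40.5, 1.5 and 9.7 RPKM, and its female levels were 0.9, 0.5, 0.4, 0.3 and 0.1 RPKM. Spermatogenesis was the highest region, and every female value was under 1 RPKM. The log2 difference of spermatogenesis over early pachytene was 7.77. The retained gene with the same annotation, AgB01_g537, had male levels of 6.9, 39.8, 5.8, 0.4 and 1.1 RPKM, so both glutaminase genes were highest in spermatogenesis.

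The eliminated genes for kinases, which add phosphate to proteins, were mostly high in spermatogenesis. Of 13 eliminated kinase genes 12 passed 10 RPKM, 10 of them were highest in spermatogenesis and the other 2 in the male mitotic region. Against early pachytene 10 were higher in spermatogenesis and 0 lower. Of the 189 retained AgB kinases, 130 passed 10 RPKM and 31 were highest in spermatogenesis. Of these 189, 26 were higher in spermatogenesis than in early pachytene and 49 lower. Of all 607 kinase genes, 145 were higher and 138 lower. AgB21_g003, a tau-tubulin kinase 1 (AgB21, 49566 to 56086, minus strand), had male levels of 103.6, 243.5, 22.3, 0.5 and 8.8 RPKM and female levels of 5.5, 7.3, 7.5, 2.7 and 1.7 RPKM. AgB29_g001, a tau-tubulin kinase 2 (AgB29, 24210 to 32800, minus strand), had male levels of 25.8, 228.8, 95.9, 0.8 and 9.8 RPKM and female levels of 4.6, 3.8, 3.1, 1.0 and 0.7 RPKM. Tau-tubulin kinases were named for phosphorylating the microtubule proteins tau and tubulin in mammals. In both genes spermatogenesis was the highest region, less than 4-fold above the next, and their log2 differences over early pachytene were 4.88 and 5.58. The tyrosine kinases AgB12_g002 and AgB34_g005 reached 140.5 and 119.8 RPKM in spermatogenesis.

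The 2 eliminated phosphatase genes were both higher in spermatogenesis than in early pachytene. Of all 329 phosphatase genes, 106 were higher and 63 lower. AgB29_g017 (AgB29, 199400 to 216177, minus strand) is annotated as isozyme 7 of PP1, a serine/threonine phosphatase that removes phosphate from many proteins. Its male levels were 101.4, 323.9, 68.0, 1.1 and 16 RPKM and its female levels 6.7, 7.7, 7.2, 3.5 and 3.2 RPKM. The seminal vesicle was its lowest region, and the other 4 male values stood above all female values. The Lar-like tyrosine phosphatase AgB20_g013 was at 70.7 RPKM in spermatogenesis and 0.2 RPKM in early pachytene.

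Membrane transporters also had high levels in spermatogenesis. Of 13 eliminated genes 11 passed 10 RPKM, 7 were highest in spermatogenesis, and 7 were higher there than in early pachytene with 0 lower. Of the 185 retained AgB transporters 72 passed 10 RPKM, 13 were highest in spermatogenesis, and 12 were higher there and 22 lower. Solute carrier family 2 proteins carry hexose sugars across membranes. AgB02_g473 of this family (AgB02, 8084986 to 8094341, minus strand) had male levels of 112.5, 448.3, 61.9, 1.9 and 12.5 RPKM and female levels of 29.6, 23.0, 23.7, 5.6 and 8.5 RPKM. It overlaps AgB02_g472 of the same family, on the other strand, at 78.0 RPKM in spermatogenesis. No source used here says whether the counting used strand, so reads of the 2 genes may not be separated. AgB32_g006 of the family, which overlaps no other gene, had 181.1 RPKM in spermatogenesis and 2.2 RPKM in early pachytene.

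Methylmalonyl-CoA mutase, which makes succinyl-CoA, had male levels of 150.1, 281.4, 56.8, 1.0 and 10.9 RPKM and female levels of 17.3, 12.9, 11.8, 3.2 and 4.7 RPKM at AgB02_g471, with a log2 difference over early pachytene of 4.34. In the mitochondrial energy list 5 of 103 genes of the whole table were higher in spermatogenesis than in early pachytene, and 37 lower. Its 2 eliminated AgB genes were both higher. Both are annotated as the iron-sulfur subunit of succinate dehydrogenase, an enzyme of the respiratory chain, and they lie on AgB31X and overlap each other. AgB31X_g011 (AgB31X, 108879 to 118644, plus strand) had male levels of 119.7, 102.5, 12.2, 0.4 and 4.3 RPKM, and its female levels lay between 0.1 and 0.7 RPKM. Its highest region was the male mitotic region, unlike the mutase.

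Of 13 eliminated genes of the ubiquitin and proteasome list 7 passed 10 RPKM. In spermatogenesis 3 were higher than in early pachytene and 1 was lower, and after rescaling 4 were higher and 0 lower. Of all 320 genes of this list, 39 were higher and 58 lower on the deposited scale. AgB23_g072 (AgB23, 1079039 to 1133983, plus strand) is annotated as proteasome activator subunit 4, a protein that binds the proteasome and opens it. Its male levels were 31.2, 221.1, 21.2, 0.5 and 4.5 RPKM and its female levels 3.0, 4.2, 3.9, 1.2 and 0.6 RPKM. Spermatogenesis was its highest region, and the male mitotic and post-meiotic regions were also above 10 RPKM. The proteasome regulatory subunit AgB06_g001 had 87.6 RPKM in spermatogenesis and 0.0 RPKM in early pachytene. The ubiquitin-conjugating enzyme AgB17_g102 (AgB17, 1573431 to 1576492, minus strand), which passes ubiquitin to target proteins, was high in both sexes, with male levels of 199.1, 282.1, 41.1, 2.0 and 19.0 RPKM and female levels of 98.8, 111.5, 96.9, 8.5 and 4.8 RPKM. Ubiquitin carboxyl-terminal hydrolase 7, which removes ubiquitin, was higher in early pachytene at AgB02_g278, with 11.0 RPKM against 0.7 RPKM in spermatogenesis.

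Major sperm protein drives the crawling of nematode sperm, and 2 eliminated AgB genes carry that annotation. AgB17_g092 (AgB17, 1474618 to 1479259, minus strand) had male levels of 20.6, 57.9, 9.3, 0.1 and 3.5 RPKM, and its female levels were at most 0.1 RPKM. AgB03_g008 had 46.5 RPKM in spermatogenesis and 3.0 RPKM in early pachytene. Over the whole table the 99 genes of the sperm list summed to 24941 RPKM or more in the male mitotic, spermatogenesis and post-meiotic libraries. They summed to 768.3 RPKM in the seminal vesicle, 5108.2 RPKM in spermatids and at most 317.1 RPKM in the female libraries.

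A smaller set of eliminated genes was high in the female germline. AgB07_g007 (AgB07, 55087 to 82816, minus strand) is annotated as chitin synthase 8, and chitin is a component of the nematode eggshell. Its male levels were 8.1, 0.6, 2.6, 0.7 and 2.5 RPKM and its female levels 270.4, 272.7, 286.8, 42.8 and 47.0 RPKM. AgB02_g486 (AgB02, 8296197 to 8304167, plus strand) is annotated as kinesin-2, a microtubule motor, with male levels of 6.3, 0.6, 3.0, 0.5 and 1.1 RPKM and female levels of 87.4, 205.1, 214.9, 42.8 and 37.9 RPKM. In both genes every female value stood above every male value, and the pachytene regions were high with diplotene and the oocyte lower.

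The ketone body enzyme succinyl-CoA:3-ketoacid-CoA transferase at AgB34_g004 had female levels of 204.1, 198.3, 184.5, 12.3 and 16.3 RPKM and male levels of 9.1, 2.7, 2.5, 0.6 and 2.5 RPKM. Tristetraprolin, which in mammals binds and destabilises messenger RNAs, is annotated at AgB20_g012. Its female levels were 46.7, 62.8, 66.4, 24.5 and 25.3 RPKM, and every male level was under 1 RPKM. AgB15X_g003, annotated as partial tristetraprolin, had female levels of 106.8, 111.6, 103.7, 14.7 and 13.1 RPKM. It was also expressed in the male, at 37.6 RPKM in the mitotic region and 9.5 RPKM in spermatogenesis. AgB03_g006, an arylacetamide deacetylase-like protein, reached 132.5 RPKM in early pachytene. The smg9 gene AgB28X_g010, named for a factor of nonsense-mediated RNA decay and chosen after its values were seen, reached 113.5 RPKM in the female mitotic region and 12.2 RPKM in the male one.

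Genes for translation and RNA regulation were expressed in both sexes. Of 8 translation genes 7 passed 10 RPKM, and 0 were higher and 2 lower in spermatogenesis than in early pachytene. After rescaling 3 were higher and 0 lower, so no direction holds for these 8 genes. Of all 388 genes of the translation list, 9 were higher and 82 lower on the deposited scale. AgB29_g014 is annotated as ribosomal protein S19G (AgB29, 172743 to 175617, plus strand), the germline form of this small subunit protein in Ascaris. Its male levels were 78.5, 14.7, 2.8, 0.2 and 19.1 RPKM and its female levels 43.1, 45.8, 37.7, 12.1 and 42.6 RPKM. The oocyte value was among the 2 highest of the eliminated AgB genes in that region. AgB14_g004, annotated as ribosomal protein L13 of the large subunit (AgB14, 64638 to 70965, minus strand), had male levels of 119.7, 12.1, 2.5, 0.4 and 25.1 RPKM and female levels of 90.5, 88.9, 76.9, 12.4 and 10.7 RPKM.

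The retained gene with the L13 annotation, AgR035X_g077, had male levels of 132.1, 15.3, 132.8, 196.4 and 88.3 RPKM and female levels of 156.0, 141.1, 119.6, 91.0 and 133.9 RPKM. The 2 L13 genes were within 2-fold of each other in both mitotic regions, both pachytene regions and spermatogenesis. They parted in the post-meiotic region, the seminal vesicle, spermatids, diplotene and the oocyte, where the retained gene was higher. Among 10 eliminated RNA-binding genes 8 passed 10 RPKM. In spermatogenesis 1 was higher and 1 lower than in early pachytene, and 4 were higher and 1 lower after rescaling. Of all 360 genes of the RNA-binding list, 14 were higher and 70 lower on the deposited scale. The poly(A) polymerase AgB30_g001, named for gld-2 of Caenorhabditis elegans, which lengthens the tails of germline messenger RNAs, had male levels of 85.6, 77.8, 9.3, 0.4 and 11.2 RPKM and female levels of 97.1, 57.4, 57.6, 10.8 and 7.1 RPKM.

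Few eliminated genes were high late in the male tube. AgB34_g002, a hypothetical protein (AgB34, 22783 to 25869, minus strand), had male levels of 38.7, 27.4, 112.7, 3.8 and 221.3 RPKM and female levels of 6.6, 12.3, 10.6, 18.9 and 1.5 RPKM, and was the 1 gene highest in spermatids. AgB03_g003, a hypothetical protein of 449 nt, had 35.6 RPKM in the seminal vesicle and 26.5 RPKM in spermatids, and at most 3.1 RPKM in the other regions. It was 1 of 5 eliminated genes (2.10%) at 10 RPKM or more in the seminal vesicle, against 10.5% of all genes. The others were AgB05_g427, AgB05_g428, AgB05_g429 and AgB01_g830, hypothetical proteins at 34.7, 10.1, 24.2 and 15.9 RPKM. AgB05_g427 and AgB05_g429 were highest in the post-meiotic region, at 45.5 and 50.9 RPKM. Their female levels were 10.8 to 25.9 and 5.2 to 21.3 RPKM. Cuticle genes of the whole table, listed as possible markers of other tissue, summed to 20836 RPKM in the seminal vesicle, 17648 RPKM in spermatids and at most 1707 RPKM elsewhere. Few genes made these sums. In the seminal vesicle 12 of 214 reached 10 RPKM and AgB01_g560 alone had 10202.7 RPKM. In spermatids 30 did, with 5573.5 RPKM at AgB01_g561, and in early pachytene 30 did as well. The other somatic lists did not rise in these 2 libraries. Muscle genes summed to 94.4 RPKM in the seminal vesicle and 321.3 RPKM in spermatids, and to at least 492.4 RPKM elsewhere. Intestine genes summed to 51.9 and 83.1 RPKM, against 21.5 to 187.4 RPKM elsewhere. Neuron genes summed to 1020.4 and 567.9 RPKM, against 301.5 to 1499.5 RPKM elsewhere. Whether cells of the tube express the cuticle genes was not tested. The part of other tissue in the values of the eliminated genes was also not tested. The zinc finger gene AgB16X_g003 reached 26.7 RPKM in the post-meiotic region. It is 1 of 14 eliminated genes annotated as zinc c2h2 type family protein, and the other 13 were between 0.7 and 4.5 RPKM at their highest. The fert-1 gene AgB29_g015, chosen after its values were seen, was highest in spermatogenesis at 13.1 RPKM.

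Lists with few members complete the account. The chromatin and zinc finger list held 17 eliminated genes, 4 at 10 RPKM or more, with 2 higher in spermatogenesis and 0 lower. Of all 688 genes of that list, 28 were higher and 128 lower. The cell cycle list held 5 eliminated genes, with 0 higher and 1 lower, and after rescaling 1 higher and 0 lower. Of all its 133 genes, 16 were higher and 17 lower on the deposited scale. The cytoskeleton list held 2 eliminated genes, with kinesin-2 lower in spermatogenesis. Of all its 360 genes, 33 were higher and 81 lower. The list of transposon words held 5 eliminated genes, of which 1 passed 10 RPKM. Both titin genes of the muscle list, AgB17_g106 and AgB17_g110, were highest in the male mitotic region, at 56.3 and 49.2 RPKM. They overlap on opposite strands, so their reads may not be separated and they are not read as 2 independent genes. The neuron and receptor lists held 1 gene each, under 10 RPKM everywhere. The lists for proteases, DNA replication and meiosis, eggshell, intestine and cuticle held 0 eliminated AgB genes.

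Of the 151 eliminated AgB genes with a descriptive annotation, 119 shared its exact wording with a retained gene, or 126 when the word partial was ignored. Each of the 126 was set beside the retained gene of that name with the highest value. At most 5 retained genes carried the name in 79 of these pairs, a limit chosen after the data were seen. Some pairs share a retained gene, and a shared name does not show common descent. Taking the highest of several copies favours the retained gene by construction, so counts in its favour are not read as a result. In spermatogenesis the eliminated gene was higher in 44 of the 79 pairs and the retained gene in 34, and the medians were 6.2 RPKM for eliminated and 6.1 RPKM for retained genes. Over all 126 pairs, where names with more retained copies enter, the eliminated gene was higher in 53 and the retained gene in 72. In the male mitotic region the eliminated gene was higher in 30 of the 79 pairs, with medians of 13.7 and 25.3 RPKM. It was higher in 17 pairs in the post-meiotic region, 7 in the seminal vesicle, 18 in diplotene and 26 in the oocyte. In the 53 pairs where both genes reached 10 RPKM in some region, the eliminated gene was higher in 36 in spermatogenesis and 22 in the male mitotic region. That limit depends on the regions in which each gene is high, so nothing is read from the second set. The ubiquitin-conjugating enzyme gave a wide difference, with 282.1 RPKM at AgB17_g102 in spermatogenesis and 1.7 RPKM at the retained AgR051X_g040. Kinesin-2 ran the other way, with 205.1 RPKM at AgB02_g486 in early pachytene and 407.1 RPKM at the retained AgR002_g311.

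Over all blocks 70.5% of the 139 expressed genes were highest in a male region. The counts per block below were not tested against that share. Among 11 blocks with 5 or more genes at 10 RPKM or more, every such gene was highest in a male region in 2 blocks, and in 0 blocks was every gene highest in a female region. The 2 blocks were AgB06, with 5 of 5 genes, and AgB31X, with 8 of 8. In the second block of AgB02, 7 of 10 genes were highest in a female region, although its first genes include the mutase and the sugar transporters that were high in spermatogenesis. The AgB18 block held 4 genes, all under 10 RPKM.

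**Figure D5:**
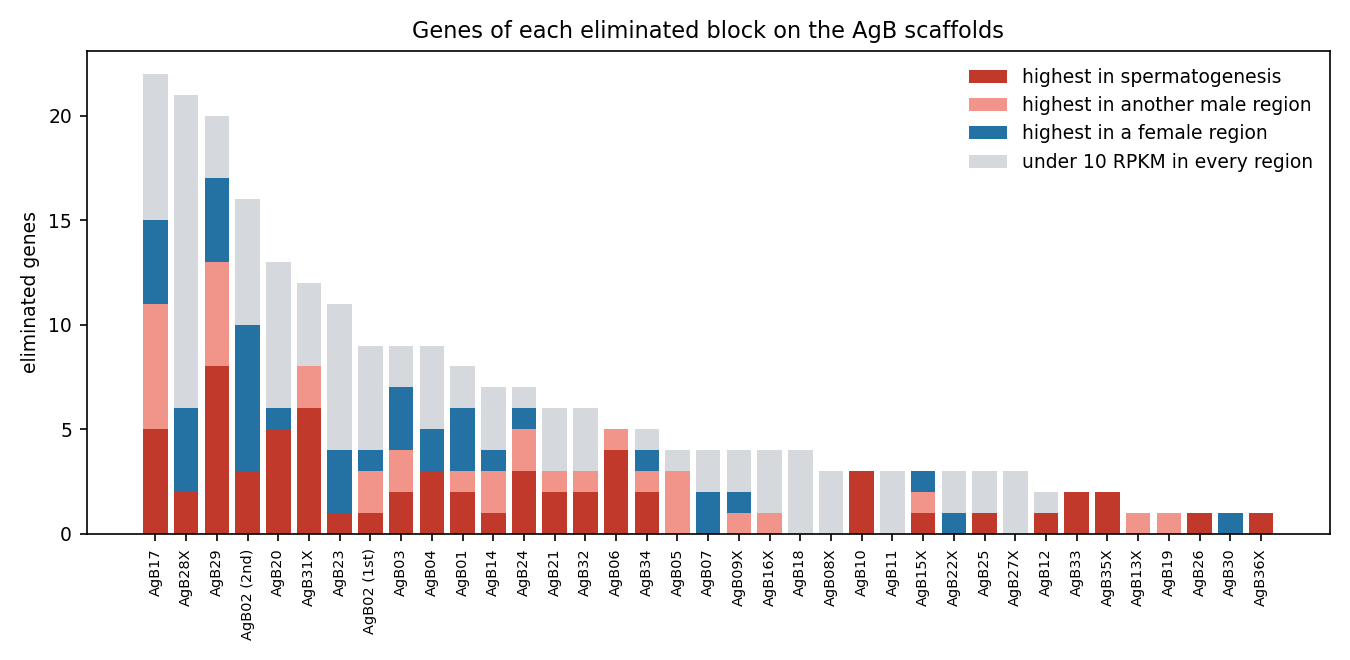
Number of eliminated genes in each of the 37 blocks, coloured by the region of the highest value, with genes under 10 RPKM in grey. All expressed genes of the AgB06 and AgB31X blocks are highest in a male region.

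At the edge of the blocks, the eliminated gene nearest to retained genes was set against its retained neighbour in 35 pairs. In spermatogenesis the eliminated gene was higher in 26 pairs and the retained gene in 8, with medians of 9.5 and 1.2 RPKM. In the oocyte the eliminated gene was higher in 12 pairs and the retained gene in 22. At AgB23 the proteasome activator gene stood at 221.1 RPKM in spermatogenesis, and its retained neighbour AgB23_g071, 5651 bp away, at 0.5 RPKM. At AgB03 the order was the reverse, with 7.9 RPKM at the eliminated AgB03_g009 and 15.7 RPKM at the retained AgB03_g010. Of the eliminated genes within 10 kb of a retained gene, 82.8% of 29 passed 10 RPKM. The shares were 56.4% at 10 to 30 kb, 52.3% at 30 to 60 kb and 54.5% beyond 60 kb, with bins chosen after the data were seen. Spearman's rho between distance and the highest value was -0.08 across 227 genes, which share libraries and blocks and are not independent.

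Scaffolds whose names end in X held 57 of the eliminated genes, of which 25 (43.9%) passed 10 RPKM. On the other scaffolds 114 of 181 (63.0%) passed. The median level in spermatogenesis was 1.2 RPKM over the 57 genes and 6.3 RPKM over the 181. Of the 25 that passed, 12 (48%) were highest in spermatogenesis, close to the 45.6% of the 114. That likeness therefore holds only among genes that passed 10 RPKM. Among retained AgB genes the share was 7.41% of 405 on the X-named scaffolds and 20.1% on the others. No source used here says what the X in the names means.

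The eliminated genes also differed in how their transcripts were flagged at the start. The table flags trans-splicing, in which a short spliced leader is joined to the start of a messenger RNA, and a non-trans-spliced start. The spliced leader flag was set in 24.4% of the eliminated and 41.5% of the retained AgB genes, and among genes that passed 10 RPKM in 30.9% and 54.8%. It was also rare on the eliminated AgE genes, at 18.75%, and 23.5% among those that passed 10 RPKM. The flag for a non-trans-spliced start was set in 16.8% of the eliminated and 12.8% of the retained AgB genes. Neither flag was set in 66.0% of the eliminated and 52.1% of the retained AgB genes. Among genes that passed 10 RPKM neither was set in 75 of 139 and 894 of 2507. A missing spliced leader flag therefore does not show a start without trans-splicing. Of the expressed eliminated genes with the non-trans-spliced flag alone, 16 of 21 were highest in spermatogenesis, and of those with the spliced leader flag alone, 6 of 28. The retained AgB genes had the same order, with 119 of 238 for the non-trans-spliced flag alone and 83 of 1100 for the spliced leader flag alone. The marked transcripts had a median of 4 exons and 1706 nt in eliminated genes and 5 exons and 1985 nt in retained genes. Among genes that passed 10 RPKM the medians were 7 exons in both, and 2162 and 2201 nt. A single exon was present in 21.4% of the eliminated and 13.6% of the retained genes.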

How the data were processed

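RNA from 10 germline regions, 1 library each, was analysed from the authors' deposited table of 61820 transcripts. The header names no unit, and the deposited values were read as RPKM. TopHat2 and Cufflinks are named per the submitters' processing notes. No source used here gives their versions, the strand setting or the genome build. The 2 libraries of transcript starts have no expression column and were not used, and 15 empty columns were left out.

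Each gene is represented by the transcript the authors marked as best expressed. In 149 eliminated AgB genes with 2 or more transcripts, that transcript had the highest value in 55. Differences were taken on log2(RPKM + 1), and a gene was counted at a 4-fold difference with the larger value at 10 RPKM or more. No test was possible with 1 library per region. The counting rule was tested on simulated data. Python 3.11.15, pandas 2.3.3, numpy 2.4.6, scipy 1.17.1 and matplotlib 3.10.9 were used. Rescaling used median ratios over 15277 transcripts.

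The members, lists and rules were chosen with earlier results of these data known. The words that define the 20 gene lists were corrected after their matches were read. Named genes are the 15 highest, the 2 highest per region, the largest differences and sex gaps, up to 4 per list, and the gene nearest to retained genes on each scaffold. Exceptions are stated where they occur.

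Read depth is not stated. From the steps between low values, depth was estimated in 5 of the 10 libraries, where the best estimate scored at least 1.5 times the next. The estimates were about 27025000 reads in the male mitotic region, 34025000 in the post-meiotic region, 28025000 in spermatids, 31175000 in the female mitotic region and 23225000 in the oocyte. A stricter bound of 2, tried after seeing which libraries passed the first, leaves 3 of them, the male mitotic region, spermatids and the oocyte, so the estimates are approximate.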

Additional observations from a re-analysis of the deposited data

How the results depend on the processing

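No paired analysis was possible because each region is 1 library and the labels give no replicate numbers. Of the counts that answer a comparison, 122 recomputed values kept their direction and stayed within 1.5 times, 24 moved and 2 reversed. Most counts below stand without the share of other genes at the same setting. A rise or fall in them is therefore not read as particular to the eliminated genes. Rescaling the libraries by median ratios reversed spermatogenesis against the male mitotic region, from 22 lower to 1. It also took post-meiotic against spermatogenesis from 65 to 111 lower, spermatids against seminal vesicle from 18 to 30 higher, diplotene against late pachytene from 33 to 7 lower, and genes highest in spermatogenesis from 64 to 105. The share highest in spermatogenesis was then 70% of eliminated and 36.1% of retained AgB genes. At a 2-fold threshold spermatogenesis against male mitotic gave 39 lower, spermatids against post-meiotic 30 lower, early pachytene against female mitotic 2 higher and 13 lower, and oocyte against diplotene reversed, with 3 lower and 5 higher. With no filter on low values seminal vesicle against post-meiotic gave 61 lower and spermatids against seminal vesicle 53 higher. With the larger value at 5 RPKM they gave 53 and 41, and with values summed per gene 76 and 67. Oocyte against diplotene gave 4 lower with summed values, 5 with the highest transcript and 1 without scaffold AgB02. The 5 female genes of the gap rule became 3 without AgB02 and 10 without the male mitotic region. A pseudocount of 0.1 lowered the median tau from 0.584 to 0.424. Leaving out genes that overlap another gene, chosen after seeing the data, leaves 170 members by construction. It gave 32 higher in the male mitotic region, 39 higher in spermatogenesis than in early pachytene, 39 lower in the post-meiotic region, 40 highest in spermatogenesis and 90 at 10 RPKM or more, and the share highest in spermatogenesis was 44.4% against 17.3% of retained genes. The male-limited class went from 31 to 38 under rescaling and to 18 without overlapping genes, and the female class from 11 to 7 and 9. Among same-name pairs the eliminated gene was higher in spermatogenesis in 55.7% of 79 and in 67.9% of the 53 with both genes at 10 RPKM or more. It was higher in 42.1% of all 126, which reverses the order. The retained gene is the highest of its copies, which favours it by construction. For named genes, in spermatogenesis against early pachytene, 383 recomputed values kept their side of the threshold, 19 crossed it upward, 14 fell short of it and 0 reversed. Apart from the stated construction and scaling, the cause was not tested.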
